A study of Rattus norvegicus with 30 samples.

Results

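Cells of the inner medullary collecting duct of rats, in primary culture, were adapted to medium of 600 mosmol/kg and then challenged with 900 mosmol/kg, and the transcriptomes after 12 h and after 24 h of this challenge are compared here. The comparison rests on 6 of the 30 arrays of the series, chosen by their titles: 3 arrays at 12 h and 3 at 24 h, both numbered 1, 2 and 9. They are read against 3 arrays of cells kept at 600 mosmol/kg, called steady 600, which give the starting point of the challenge. A further 3 arrays of cells kept at 900 mosmol/kg (steady 900) and 6 arrays taken 12 and 24 h after a step from 300 to 600 mosmol/kg serve as references. Cyclosporin A at 5 µM, which inhibits the phosphatase calcineurin, stands in the treatment field of all groups but in no title, so which cultures received the drug is not settled. The labels name no steady culture harvested 12 or 24 h after a sham change of medium, so the duration of the challenge and the time in culture cannot be told apart. The strain, sex and age of the rats and any pooling of animals were not found in the labels.

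The inner medullary collecting duct is the last segment of the kidney tubule, where vasopressin opens the epithelium to water through aquaporin-2 and to urea through its urea transporters. Its cells live in a medium that becomes strongly hypertonic when the kidney concentrates urine. They survive by exchanging an early load of inorganic ions for organic osmolytes such as sorbitol, myo-inositol, taurine and betaine, under the transcription factor NFAT5. Interferon-stimulated genes are the antiviral genes that type I interferons switch on through a transcription factor complex that holds STAT2 and IRF9, and many cells also keep a low tonic expression of them. The complex binds the interferon-stimulated response element, a repeat of GAAA in the promoter.

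Most of the 4707 genes that differed between 12 and 24 h moved opposite to a change called at 12 h against steady 600. These were 2087 genes after a fall and 878 after a rise. The 12 h arrays enter both comparisons with opposite sign, so their spread favours this outcome, and it was not tested. Of 14506 genes, 3046 (21.0%) were higher at 24 h than at 12 h and 1661 (11.5%) were lower, by limma with a Benjamini-Hochberg adjusted p under 0.05. These shares are the background for the list counts from 12 to 24 h given below. For 12 h against steady 600 the shares of all genes were 12.5% higher and 25.3% lower. A change of at least 2-fold was found for 223 higher genes (1.54%) and for 52 lower genes (0.358%). Of the 8 largest increases 7 were interferon-stimulated genes and the eighth was the water channel gene Aqp3. By the median of their members, the lists with the largest rises were the interferon-stimulated genes (1.07 on the log2 scale), antigen processing and class I (0.70), cholesterol synthesis and uptake (0.58) and oxidative phosphorylation (0.40). The leading decreases were genes that the challenge had raised by 12 h, such as Kcnj13, Npy4r, Ccl20 and Ptgs2, and genes of the matrix and of growth factors that had not risen, such as Fn1 and Tgfb3. Higher genes made up 64.7% of the called genes as deposited, 53.4% after quantile normalization and 55.3% after cyclic loess normalization, so the excess of higher genes depended on the scaling of the arrays. The median change of all genes was 0.04 on the log2 scale.

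Promoter sequences are shown for 4 interferon-stimulated genes and a class I gene of those described below, because they hold the core of the response element. The windows were taken from RefSeq (assembly GRCr8) and run 5′ to 3′ along the gene's strand over the 250 bases before its annotated start. Capitals mark a match to GAAA, any 2 bases and again GAAA, which lies on the opposite strand in all 5 and therefore reads TTTC, 2 bases and TTTC. Gbp2 is at chr2:234005477-234005726 on the plus strand, Irf7 at chr1:205800024-205800273 on the minus strand, Oasl2 at chr12:47383186-47383435 on the minus strand, Rsad2 at chr6:48788121-48788370 on the minus strand and RT1-S3 at chr20:2675278-2675527 on the plus strand.
Gbp2: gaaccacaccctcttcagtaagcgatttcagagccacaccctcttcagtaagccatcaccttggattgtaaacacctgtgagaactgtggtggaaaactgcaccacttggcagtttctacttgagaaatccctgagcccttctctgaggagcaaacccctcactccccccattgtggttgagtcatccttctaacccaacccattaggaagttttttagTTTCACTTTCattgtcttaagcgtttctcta
Irf7: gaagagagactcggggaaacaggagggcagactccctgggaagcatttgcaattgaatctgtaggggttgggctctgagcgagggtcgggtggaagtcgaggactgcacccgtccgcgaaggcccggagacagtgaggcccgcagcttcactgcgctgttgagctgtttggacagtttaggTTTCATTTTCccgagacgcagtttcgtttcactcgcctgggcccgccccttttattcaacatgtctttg
Oasl2: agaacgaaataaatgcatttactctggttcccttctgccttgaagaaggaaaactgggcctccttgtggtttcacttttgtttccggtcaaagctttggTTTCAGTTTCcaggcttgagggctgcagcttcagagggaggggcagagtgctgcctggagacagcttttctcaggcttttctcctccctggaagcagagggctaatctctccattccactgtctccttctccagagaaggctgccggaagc
Rsad2: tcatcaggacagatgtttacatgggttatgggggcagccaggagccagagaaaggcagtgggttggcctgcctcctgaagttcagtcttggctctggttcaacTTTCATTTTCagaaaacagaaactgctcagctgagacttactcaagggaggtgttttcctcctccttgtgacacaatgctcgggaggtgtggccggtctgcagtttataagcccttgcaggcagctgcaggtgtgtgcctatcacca
RT1-S3: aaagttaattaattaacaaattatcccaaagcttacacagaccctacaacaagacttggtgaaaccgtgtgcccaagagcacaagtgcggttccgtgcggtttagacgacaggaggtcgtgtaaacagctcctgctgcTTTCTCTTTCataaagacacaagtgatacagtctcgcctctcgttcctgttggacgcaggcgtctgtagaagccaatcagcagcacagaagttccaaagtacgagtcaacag
The match begins 31 bases before the start in Gbp2, 69 in Irf7, 112 in RT1-S3, 147 in Rsad2 and 151 in Oasl2.

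Over windows that also take in the 50 bases after the start, the motif was found on either strand in 1034 of 27457 RefSeq promoters (3.77%) and in 408 of the 11968 that belong to measured genes (3.41%). Among genes higher at 24 h than at 12 h it was present in 117 of 2526 promoters (4.63%). Of the measured interferon-stimulated genes 39 had a promoter entry under their symbol, and 24 of these (61.54%) held the motif. Usp18, Ifit1, Mx2 and Rtp4, which had the 4 largest rises of the list, and Isg15 are not among the 39. For the antigen processing and class I list the count was 9 of 14, for cholesterol synthesis 0 of 15 and for oxidative phosphorylation 1 of 26. Of single genes described below, Ifi47, Irf9, Oasl, Mx1 and Psmb9 held no match. Psmb8 held a match that spans the start and is not shown above. Within the interferon-stimulated genes, the 24 with a match had a median change from 12 to 24 h of 0.89 on the log2 scale (from -0.02 to 2.44), and the 15 without one a median of 1.09 (from 0.33 to 2.37). The ranges of both sets overlapped almost wholly, and a match is a description of the sequence, not a shown binding site.

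The interferon-stimulated genes had fallen as a group by 12 h and stood back at or above their starting level at 24 h. Of 62 genes listed, 52 were measured, and 48 of them were higher at 24 h than at 12 h with none lower, against the background of 21.0% higher among all genes. The median change of the list was 1.07 on the log2 scale. For 46 of the 52, all 24 h arrays lay above all 12 h arrays, which was so for 23.7% of all genes. At 12 h, 44 of the 52 had been lower than at steady 600, against 25.3% of all genes, and none had been higher, with a median of -0.91. At 24 h, 20 were higher and 5 lower than at steady 600, with a median of 0.16. The 12 h arrays enter the first 2 of these comparisons with opposite sign, so the fall and the rise are not independent of each other.

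The mean level of the 52 genes gives the same course by array. It lay between 7.79 and 7.91 at steady 600, between 6.71 and 6.97 at 12 h, and between 7.97 and 8.19 at 24 h on the log2 scale. Cells kept at 900 mosmol/kg lay between 8.15 and 8.24. The 12 h arrays thus stood below every other array of these groups, and the 24 h arrays lay between the steady 600 arrays and the steady 900 arrays and overlapped in part with the latter.

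Usp18, the protease that removes ISG15 from proteins and dampens interferon receptor signalling, had the largest increase. It measured 7.44, 7.32 and 7.34 at steady 600, 5.02, 4.61 and 5.35 at 12 h, and 8.48, 7.90 and 8.05 at 24 h. No array of one group overlapped with another, and the 24 h arrays were the highest. The rise from 12 to 24 h was 8.89-fold (log2 3.15 ± 0.15 SE, n = 3 arrays a group, limma adjusted p = 7.05e-15). Ifit1, which binds viral RNA that lacks the host cap, measured 7.48, 7.14 and 7.10 at steady 600, 5.06, 4.99 and 5.38 at 12 h, and 8.59, 7.89 and 7.93 at 24 h. All 24 h arrays of Ifit1 again stood above the start, and the rise was 7.98-fold (log2 3.00 ± 0.21 SE, adjusted p = 7.92e-12). Mx2, a dynamin-like antiviral GTPase, measured 7.75, 7.56 and 8.71 at 12 h and 10.91, 10.63 and 10.72 at 24 h, from 9.94, 9.67 and 9.69 at the start. Replicate 9 at 12 h stood about a unit above its partners for Mx2 and was still below every 24 h array.

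**Figure D1:**
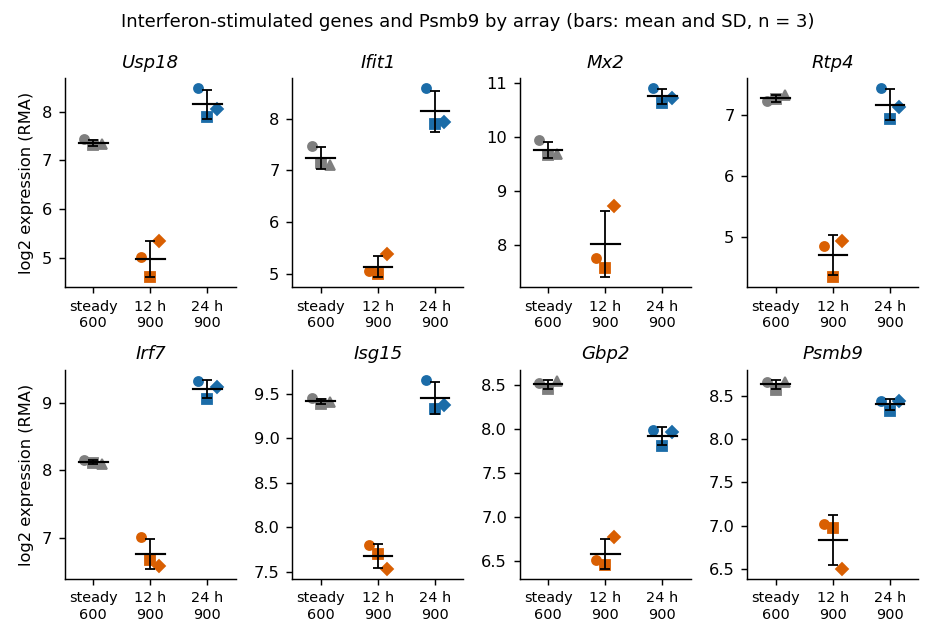
Log2 expression (RMA, vertical axis) of 7 interferon-stimulated genes and Psmb9 on each array at steady 600, after 12 h and after 24 h at 900 mosmol/kg, with the mean and SD of 3 arrays in black. Circles, squares, triangles and diamonds are replicates 1, 2, 3 and 9. All 8 genes dip at 12 h, Usp18, Ifit1, Mx2 and Irf7 end above steady 600, and Gbp2 ends below it.

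Regulators of the response moved in the same direction. Irf7, the transcription factor that amplifies interferon production, measured 8.16, 8.11 and 8.10 at steady 600, 7.01, 6.68 and 6.59 at 12 h, and 9.32, 9.05 and 9.23 at 24 h. Its 24 h arrays were all above the start, and its level there was near the 9.39 ± 0.17 (SD, n = 3) of steady 900. Irf9, the DNA-binding partner of STAT2, went from 8.55, 8.49 and 8.39 to 7.66, 7.70 and 7.73 at 12 h and to 9.08, 8.79 and 8.94 at 24 h. Stat2 rose 2.13-fold from 12 to 24 h (log2 1.09).

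Effectors returned to the start to differing degrees. Isg15, the ubiquitin-like protein that is attached to other proteins, measured 9.45, 9.39 and 9.41 at steady 600, 7.80, 7.69 and 7.53 at 12 h, and 9.66, 9.33 and 9.38 at 24 h. Its 24 h arrays overlapped with the start and differed from it by 0.04 (adjusted p = 0.844). Rtp4, Ifi47 and Oasl2 were likewise not called different from steady 600 at 24 h, after rises of 5.48-fold, 4.90-fold and 3.66-fold from 12 h. Rsad2, the antiviral enzyme viperin, and Oasl, a member of the oligoadenylate synthetase family, ended above the start by 0.91 and 1.18. Gbp2, a guanylate-binding protein that attacks the vacuoles of intracellular microbes, ended below the start. It measured 8.52, 8.45 and 8.55, then 6.51, 6.45 and 6.77, then 7.99, 7.80 and 7.97, so that 30.5% of the fall at 12 h was left at 24 h.

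Of the 44 interferon-stimulated genes lowered at 12 h, 43 rose again by 24 h. At 24 h, 23 of these were not called different from steady 600, 5 were still lower and 15 were higher. The list thus held members on both sides of the starting level at 24 h, although nearly all had moved upwards. Mx1 was a member without a called fall. It measured 9.71, 9.26 and 9.18 at steady 600 and 8.99, 9.10 and 9.76 at 12 h, which overlap, and 11.08, 10.80 and 10.74 at 24 h. Its rise from 12 to 24 h was 3.01-fold (log2 1.59 ± 0.24 SE, adjusted p = 4.39e-06). The 4 members not called between 12 and 24 h were Epsti1 (0.26), Oas1k (0.06), Zbp1 (-0.02) and Oas3 (-0.02 on the log2 scale).

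Upstream parts of the interferon system moved less. Of 16 measured components, 5 were higher at 24 h and 2 were lower, with a median of 0.00, and these counts lie near the shares of all genes (21.0% and 11.5%). Irf3, the factor that starts interferon transcription after viral RNA or DNA is sensed, rose by 0.83, the kinase gene Ikbke by 0.78 and the receptor gene Il10rb by 0.70. The interferon genes Ifnb1 and Ifng each changed by -0.02 and the receptor gene Ifnar1 by -0.03, and none of them was called. No detection call was made, so it is not known whether the interferon genes were measured above background. Socs3, a feedback inhibitor of cytokine signalling, fell by 0.62.

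Genes of antigen processing and class I presentation had the same course, and their median ended close to the start. All 15 measured members were higher at 24 h than at 12 h, with a median of 0.70, and 14 of them had been lower at 12 h, with a median of -0.84. At 24 h their median difference from steady 600 was -0.03. Of the 15, 2 were then called higher than steady 600 and 4 lower, beside 11.2% and 14.7% of all genes. The lowest member stood at -1.12. Psmb9, a catalytic subunit of the immunoproteasome, measured 8.66, 8.57 and 8.66 at steady 600, 7.02, 6.98 and 6.50 at 12 h, and 8.44, 8.32 and 8.43 at 24 h. All 12 h arrays of Psmb9 lay far below both other groups, and the rise was 2.96-fold. Psmb8, its partner subunit, rose 2.19-fold, and the class I gene RT1-S3 rose 2.59-fold. Class I genes of the rat are close copies of each other, so the value of a single RT1 gene is uncertain. Tap1, the peptide transporter, stands in both lists and rose by 0.46.

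Inflammatory caspases fell by 12 h and rose again. Casp1, which matures interleukin 1 beta and interleukin 18, measured 7.87, 7.68 and 7.66 at steady 600, 4.69, 4.46 and 5.03 at 12 h, and 7.04, 6.52 and 6.94 at 24 h. The groups did not overlap, and 30.0% of the fall was left at 24 h after a rise of 4.31-fold. Casp4 rose 2.21-fold and Casp12 by 0.66 on the log2 scale. Of the 22 apoptosis regulators measured, 7 were higher and 2, Birc2 and Apaf1, were lower, which is near the 21.0% and 11.5% of all genes.

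Across all genes the recovery was wider than these lists. Of 3672 genes lower at 12 h than at steady 600, 2087 (14.4% of all genes) were higher again at 24 h. Of these, 1447 were no longer called different from the start, 416 were still lower and 224 had passed above it. Of 1812 genes higher at 12 h (12.5%), 878 (6.05% of all genes) were lower again at 24 h, of which 673 were back, 156 were still higher and 49 had passed below the start. After quantile normalization 1665 genes recovered from a fall and 1411 from a rise, so the larger number of recovering falls depended on the scaling. Growing changes were fewer, with 173 genes lower at 12 h that fell further and 117 higher ones that rose further. A further 842 genes were higher and 610 lower at 24 h than at 12 h without a called change at 12 h. These counts follow from the calls of 3 comparisons that share arrays and carry no test of their own. Higher genes made up 33.0% of the calls at 12 h as deposited and 45.7% after quantile normalization. At 24 h against steady 600 the share was 43.3% (11.2% of all genes higher and 14.7% lower) and 54.0% after median centring.

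Large changes recovered in part. Of 412 genes at least 2-fold lower at 12 h (2.84%), 272 recovered, 30 fell further and 137 were still at least 2-fold lower at 24 h. Their median stood at -1.23 at 12 h and at -0.68 at 24 h, and a median of 52.6% of the change was left (quartiles 22.3% and 88.7%). Of 142 genes at least 2-fold higher at 12 h (0.979%), 95 recovered, 11 rose further and 68 were still at least 2-fold higher. Their median went from 1.28 to 0.94, and a median of 63.5% was left (quartiles 39.8% and 87.6%). Recovery was thus the course of 66.0% of the large falls and 66.9% of the large rises.

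**Figure D2:**
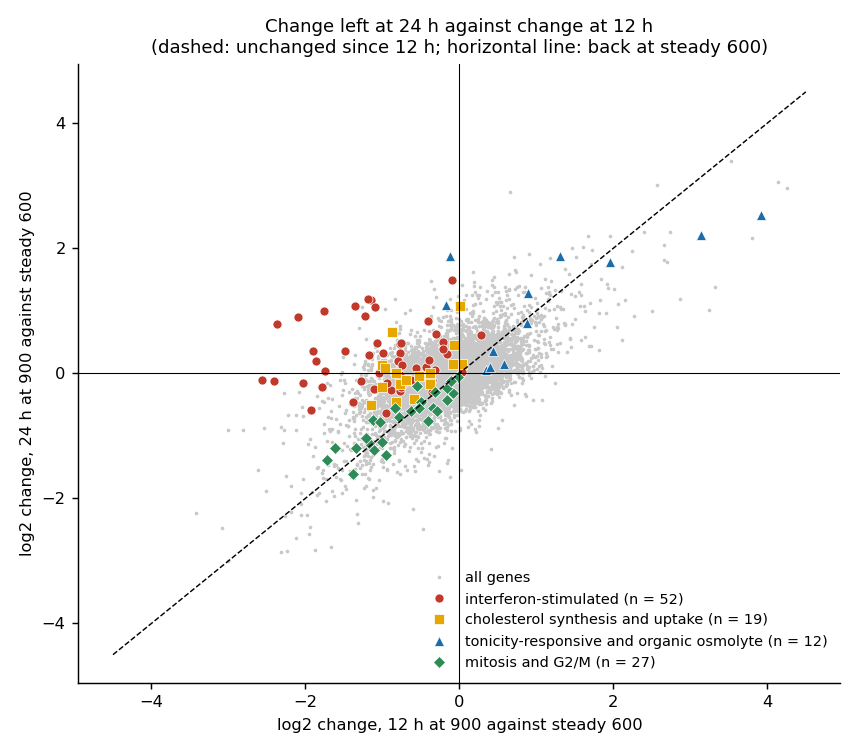
Log2 change at 24 h (vertical axis) against log2 change at 12 h (horizontal axis), both against steady 600, for 14506 genes in grey and 4 gene lists in colour. Points on the dashed line kept their 12 h change, and points on the horizontal line were back at steady 600. Interferon-stimulated (red) and cholesterol genes (yellow) lie near or above the horizontal line, while mitosis genes (green) lie along the dashed line.

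Genes of cholesterol synthesis and uptake, which sterol depletion raises through SREBP2, returned to their starting level. Of 19 measured, 15 were higher at 24 h than at 12 h and none lower, with a median of 0.58, and 15 had been lower at 12 h, with a median of -0.69. Their median against steady 600 was -0.05 at 24 h. Tm7sf2, a sterol reductase, measured 8.51, 8.54 and 8.45 at steady 600, 7.72, 7.68 and 7.47 at 12 h, and 9.19, 9.21 and 9.10 at 24 h. It passed above the start, rose 2.91-fold and was at 9.82 in steady 900. Fdft1, which makes squalene, measured 9.62, 9.58 and 9.63, then 8.41, 8.49 and 8.91, then 9.84, 9.69 and 9.68, a rise of 2.20-fold to a level not called different from the start. Insig1, a sterol-regulated brake on the pathway, rose 2.07-fold. Of 11 genes of fatty acid synthesis 4 were higher, among them Scd2 with 2.05-fold, and Fasn was lower by 0.51.

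Subunits of the respiratory chain and antioxidant genes rose by smaller amounts. Of 28 measured genes of oxidative phosphorylation, 20 were higher at 24 h and none lower, with a median of 0.40, and 19 had been lower at 12 h, with a median of -0.33. The number called higher was 15, with 1 lower, after quantile normalization. Cox5a, a subunit of cytochrome c oxidase, measured 9.89, 9.94 and 9.97 at 12 h and 10.74, 10.77 and 10.73 at 24 h, from 10.52, 10.56 and 10.52. Its groups did not overlap, and the rise was 1.75-fold. The complex I gene Ndufv1 rose 1.63-fold. Of 26 antioxidant and glutathione genes, 18 were higher and 2, Gpx3 and Hmox1, lower, with a median of 0.39, and 13 were higher after quantile normalization. The glutathione peroxidase gene Gpx2 rose by 1.08, the metallothionein gene Mt1 by 0.76 and catalase (Cat) by 0.65, while Hmox1, which degrades heme, fell by 0.55 after a rise of 0.78 at 12 h.

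Aqp2, Aqp3, Avpr2 and Slc14a2, genes of water and urea transport in the principal cell, rose between 12 and 24 h. Aqp2, the vasopressin-regulated water channel, measured 10.61, 9.92 and 9.68 at steady 600, between 9.80 and 10.06 at 12 h, and 12.07, 11.92 and 11.84 at 24 h. The first 2 groups overlapped and the 24 h arrays stood apart, 3.98-fold above 12 h (log2 1.99 ± 0.20 SE, adjusted p = 5.74e-09) and close to the 12.04 ± 0.07 (SD, n = 3) of steady 900. Avpr2, the receptor that raises cyclic AMP in response to vasopressin, went from 8.62, 8.60 and 8.30 at 12 h to 10.03, 9.89 and 9.94 at 24 h, a rise of 2.72-fold, without a called change at 12 h. Aqp3, a water channel of the basolateral side, fell and then passed its start. It measured 9.74, 9.12 and 9.04 at steady 600, 8.15, 8.15 and 7.79 at 12 h, and 10.50, 10.28 and 10.30 at 24 h, a rise of 5.03-fold. Slc14a2, the urea transporter gene, had already risen by 1.30 at 12 h and rose by a further 0.57 ± 0.13 SE (adjusted p = 0.00121).

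Over the whole principal cell list the picture was mixed. Of 23 measured genes, 10 were higher at 24 h and 2, Gata2 and Kcne1, were lower, with a median of 0.10. Without replicate 9 at 12 h, or replicate 1 or 2 at 24 h, 1 was lower. Scnn1a, the alpha subunit of the epithelial sodium channel, rose 2.41-fold from 5.33, 5.34 and 5.14 to 6.44, 6.48 and 6.69, which overlaps with its start of 6.28, 6.42 and 6.50. Scnn1b and Scnn1g changed by -0.14 and 0.10 and were not called. Fxyd4, a regulator of the sodium pump, rose by 1.65. Aqp2, Avpr2 and Slc14a2, which define the labelled cell type, were measured between 8.24 and 12.07 on these 9 arrays, and the markers of other cells are given further below.

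Ion transport genes moved in both directions between 12 and 24 h. Bsnd, which encodes barttin, the subunit of the CLC-K chloride channels, measured 6.68, 6.56 and 6.50 at steady 600, 7.19, 7.28 and 7.24 at 12 h, and 9.42, 9.43 and 9.57 at 24 h. The 24 h arrays were the highest and lay above the 8.57 ± 0.09 (SD, n = 3) of steady 900, and the rise was 4.72-fold. Slc12a2, the sodium-potassium-chloride cotransporter that swells shrunken cells, went the other way after an early rise. It measured 9.60, 9.66 and 9.78 at steady 600, 11.63, 11.69 and 11.86 at 12 h, and 10.42, 10.44 and 10.38 at 24 h. The groups did not overlap, the fall was 2.49-fold, and 35.8% of the rise was left, at the level of steady 900 (10.35 ± 0.08 SD, n = 3).

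Further transport genes fell after a 12 h rise. Kcnj13, which is not in the ion transport list, an inward-rectifier potassium channel, measured 4.88, 4.57 and 4.59, then 7.92, 7.58 and 8.25, then 5.58, 5.60 and 5.88. It had the largest fall from 12 to 24 h, of 4.70-fold (log2 -2.23 ± 0.14 SE, adjusted p = 1.19e-12), with 31.1% of its rise left. The sodium-proton exchanger gene Slc9a2 fell by 1.02 and uroguanylin (Guca2b) by 0.96. Of the 26 genes of the ion transport and cell volume list 7 were higher at 24 h and 10 lower, and the median was -0.09. Of these 10, 5 had been higher at 12 h than at steady 600.

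**Figure D3:**
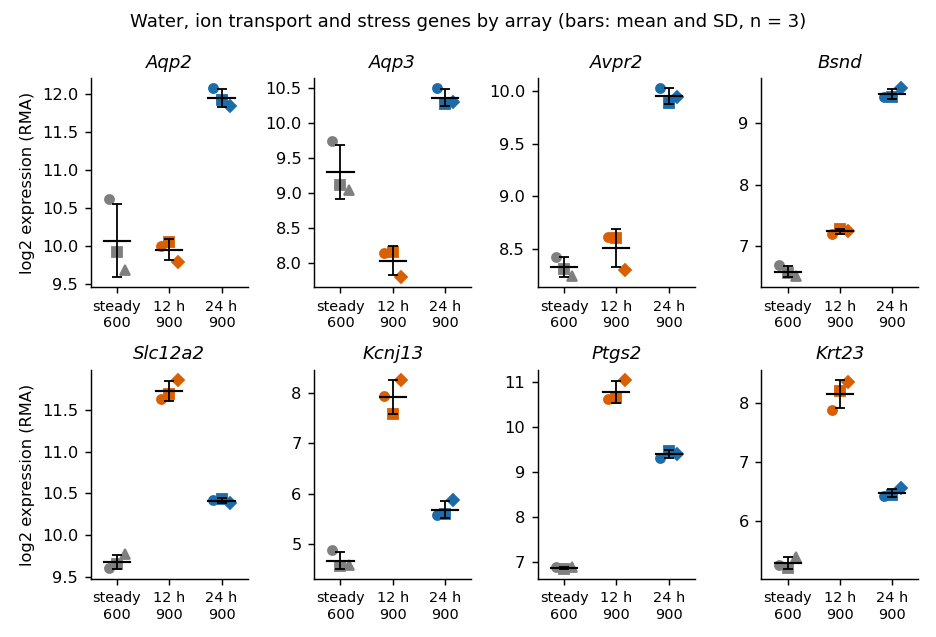
Log2 expression (RMA, vertical axis) of 8 genes of water transport, ion transport and stress on each array at steady 600, after 12 h and after 24 h at 900 mosmol/kg, with the mean and SD of 3 arrays in black. Aqp2, Avpr2 and Bsnd are highest at 24 h, Aqp3 dips at 12 h, and Slc12a2, Kcnj13, Ptgs2 and Krt23 peak at 12 h and remain above steady 600 at 24 h.

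Genes of organic osmolyte accumulation differed in how much of their rise was left. Slc5a3, the myo-inositol transporter, measured 8.33, 8.19 and 8.10 at steady 600, 10.08, 10.14 and 10.28 at 12 h, and 9.99, 10.09 and 9.86 at 24 h. The 12 h and 24 h arrays overlapped, the difference was -0.19 ± 0.09 SE (adjusted p = 0.115), and 90.5% of the rise was left. This difference was called after quantile normalization (-0.31, adjusted p = 0.00441) and after cyclic loess normalization. Akr1b1, the aldose reductase that makes sorbitol, measured 13.58, 13.50 and 13.55 at 12 h and 13.48, 13.47 and 13.47 at 24 h, a difference of -0.07 (adjusted p = 0.445). It was 0.07 and not called after quantile normalization, and -0.23 and called after cyclic loess normalization, so its direction depended on the scaling. Its values lie at the upper end of the array scale, whose highest value was 13.88, where changes can be understated. Nfat5 itself stood at 9.85, 10.02 and 10.16 at 12 h and at 9.85, 10.10 and 9.84 at 24 h, which overlap. Slc6a6, the taurine transporter, fell by 0.30 to its starting level.

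Over the tonicity-responsive list, 10 of 12 measured genes were higher at 12 h and 9 at 24 h, both against steady 600, with medians of 0.73 and 1.19. Between 12 and 24 h 4 members rose and 5 fell. The members that rose were Aqp2, Aqp1, Slc14a2 and S100a4, and those that fell included the chaperone gene Hspa4l and Ptgs2. Hspa4l, known as the osmotic stress protein of the HSP110 family, measured 8.29, 8.32 and 8.25, then 11.30, 11.24 and 11.74, then 10.51, 10.51 and 10.47, so that 70.5% of its rise was left. Of 22 heat shock genes 6 were higher and 6 lower at 24 h than at 12 h, beside 21.0% and 11.5% of all genes. Hspb1 rose 2.03-fold, and Hsph1 fell by 0.33 after a rise of 1.84.

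Inflammatory and stress genes that peaked at 12 h fell by 24 h, most of those named here to a level still above the start. Ptgs2, the inducible cyclooxygenase, measured 6.88, 6.83 and 6.88 at steady 600, 10.63, 10.64 and 11.05 at 12 h, and 9.30, 9.48 and 9.39 at 24 h. The groups stood well apart, and 64.6% of the rise was left. Ccl20, a chemokine for CCR6-bearing cells, measured 6.43, 6.48 and 6.23, then 10.02, 10.05 and 10.49, then 8.52, 8.53 and 8.57, with 56.8% left. Ripk2, the kinase behind the NOD receptors, fell 2.99-fold with 25.3% left, and the keratin gene Krt23 fell 3.20-fold with 41.4% left. Npy4r, a receptor of the pancreatic polypeptide family, measured 3.54, 3.58 and 3.59, then 6.78, 6.98 and 6.90, then 4.81, 5.24 and 4.79. Cd69 fell below its start, from 6.38, 6.17 and 6.59 at 12 h to 4.79, 4.98 and 4.85 at 24 h, against 5.41, 5.41 and 5.09 at steady 600.

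In the list of cytokines and NF-kB targets, with 32 measured, 6 were higher and 12 lower at 24 h than at 12 h, with a median of -0.14. Of 9 that recovered from a 12 h rise, 6 were still above the start and 3 were back. The chemokine genes Cxcl6, Cxcl11 and Cxcl10 rose by 1.51, 1.26 and 0.91, and the last 2 of these are also interferon-inducible. Tnf and Cxcl2 each fell by 0.49 and Il1b by 0.41. In the integrated stress response, Ppp1r15a fell by 0.81 and Nupr1 by 0.56 after rises of 1.27 and 1.93, while the chaperone partner Sdf2l1 rose by 1.02. Of the 26 genes of that list 5 were higher and 4 lower, beside 21.0% and 11.5% of all genes. Without replicate 9 at 12 h the counts were 10 and 5, and after quantile normalization they were 5 and 8. The growth factor gene Vegfa fell by 0.95, with 50.1% of its rise left, and the cationic amino acid transporter Slc7a1 fell by 1.07, with 23.7% left.

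Many matrix and growth factor genes fell late or went on falling. Of 17 matricellular genes and targets of YAP or TGF-beta, 11 were lower at 24 h than at 12 h (11.5% of all genes) and 1 was higher, with a median of -0.35, and their median against steady 600 was -1.06 at 24 h. Fn1, fibronectin, measured 11.80, 12.05 and 12.13 at steady 600 and 11.81, 11.84 and 11.87 at 12 h, which overlap, and 10.39, 10.74 and 10.53 at 24 h. Tgfb3 measured 9.15, 9.40 and 9.46, then 8.58, 8.78 and 8.85, then 7.16, 7.24 and 7.10, a fall of 2.97-fold from 12 to 24 h. Both fell mainly after 12 h. Il1rl1, the receptor for interleukin 33, measured 8.77, 8.90 and 9.55 at 12 h and 7.09, 6.94 and 7.15 at 24 h, a fall of 4.04-fold, and replicate 9 at 12 h lay within the range of steady 600 (9.50 to 9.58). Ankrd1, a YAP target, was the member that rose. It measured 9.43, 9.54 and 9.46, then 5.77, 6.12 and 6.27, then 7.22, 7.17 and 7.33, with 65.3% of its fall left.

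Cell cycle genes did not recover as a group. Of 27 mitotic genes, 22 were lower at 12 h than at steady 600, with a median of -0.79, and 23 were lower at 24 h, with a median of -0.70. Between 12 and 24 h 4 were higher and 3 lower, with a median of 0.01. These small counts depended on single arrays. With 1 array left out, between 1 (without replicate 2 at 12 h) and 7 (without replicate 2 at 24 h) were higher, between 0 (without replicate 1 at 24 h) and 6 (without replicate 2 at 12 h) were lower, and the median lay between -0.09 and 0.08. The mean level of the list lay between 6.42 and 6.53 at steady 600, between 5.60 and 5.86 at 12 h and between 5.60 and 5.94 at 24 h. Ccnb1, the mitotic cyclin, rose by 0.42 (adjusted p = 0.0108), and this call was lost without replicate 1 or 2 at 12 h or without replicate 9 at 24 h, where its adjusted p reached 0.166. Of 28 genes of DNA replication, 5 were higher at 24 h than at 12 h and 3 lower. Without replicate 1 at 12 h, or replicate 1 or 9 at 24 h, 3 were higher, and without replicate 1 at 24 h 1 was lower.

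**Figure D4:**
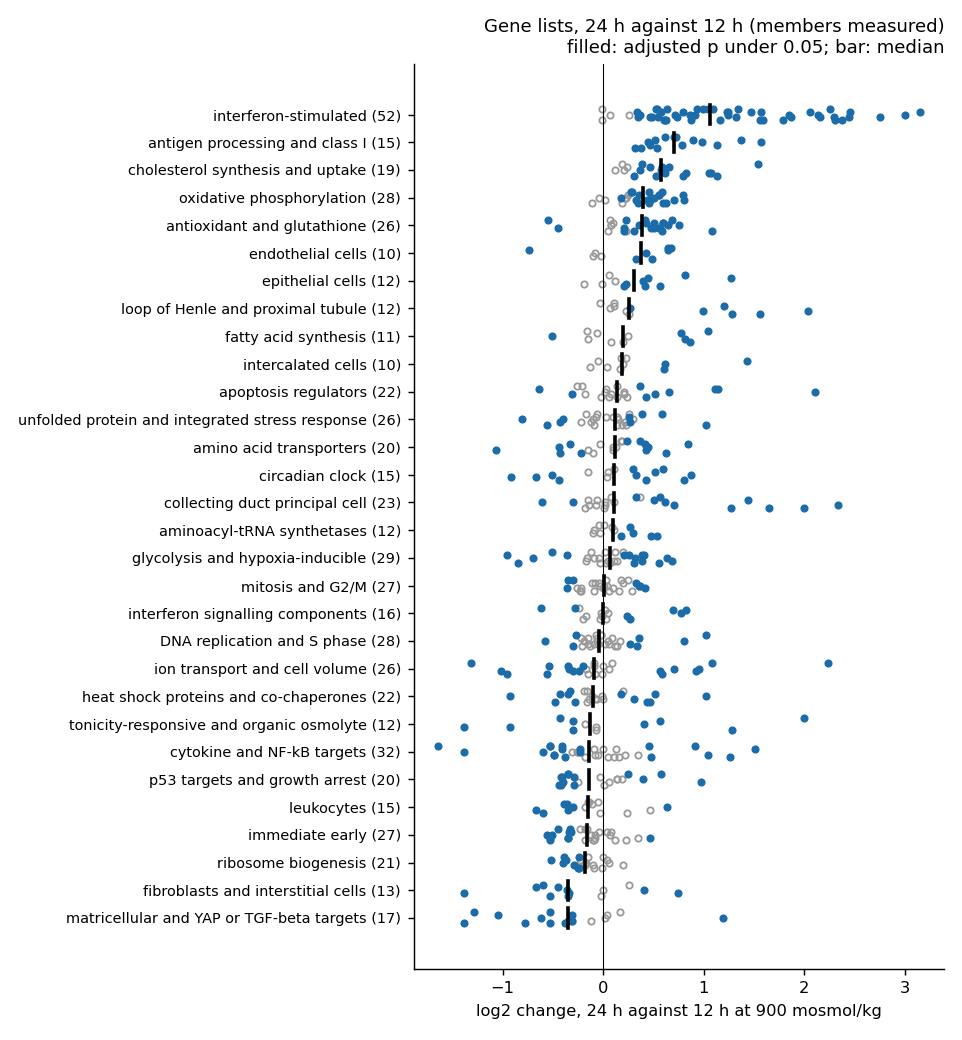
Log2 change from 12 to 24 h at 900 mosmol/kg (horizontal axis) of every measured member of the gene lists with at least 10 members, ordered by the median (black bar). Filled points passed an adjusted p of 0.05 and open points did not. The interferon-stimulated list has the highest median, at 1.07, and the matricellular list the lowest, at -0.35.

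Markers of other cell types moved with the challenge. Of 15 leukocyte markers, 14 were lower at 12 h than at steady 600, with a median of -1.07, and 14 at 24 h, with a median of -1.40. Their mean level lay between 7.24 and 7.27 at steady 600, between 6.01 and 6.29 at 12 h, between 5.92 and 6.03 at 24 h and between 6.54 and 6.65 at steady 900. Between 12 and 24 h, when the interferon-stimulated genes rose, 6 leukocyte markers fell, 1 (Vsig4) rose and the median was -0.15. Without replicate 1 at 12 h or at 24 h 3 fell, and without replicate 9 at 12 h 5 fell and 3 rose, while the median lay between -0.24 and -0.13 with any 1 array left out. Ptprc, the pan-leukocyte antigen CD45, stood at 5.62, 5.95 and 6.37 at 12 h and at 5.04, 5.54 and 5.57 at 24 h. Leukocyte markers and interferon-stimulated genes thus both fell by 12 h, whereas the medians from 12 to 24 h had opposite signs. Whether leukocytes took part in the fall of the interferon-stimulated genes was not tested.

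Most fibroblast markers fell by 12 h, and most fell between 12 and 24 h. Of 13 measured, 8 were lower at 12 h than at steady 600 and 8 were lower at 24 h than at 12 h, with medians of -0.46 and -0.35. Their mean level went from between 8.61 and 8.68 to between 8.25 and 8.33 and then to between 7.99 and 8.10, and it lay between 7.34 and 7.37 in steady 900. The matrix genes above fell with these markers, and the part of fibroblasts in that fall was not tested. Postn, which had the largest fall of both lists (-1.39), stands in both, so the lists are not independent. Epithelial markers fell by 12 h and rose again, with 8 of 12 higher at 24 h than at 12 h, a median of 0.31, and mean levels between 10.29 and 10.37, 9.86 and 9.92, and 10.24 and 10.26. After quantile normalization 6 epithelial markers were higher and 1 lower at 24 h than at 12 h, with a median of 0.19. Endothelial markers rose for 6 of 10 and fell for 1. In cultures measured as a whole, fewer cells of a type and less RNA per cell cannot be told apart.

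Some markers of other tubule cells rose as well. Of 12 genes listed as markers of the loop of Henle and proximal tubule, 6 were higher and none lower. Among them were Cldn10 (4.09-fold, from 7.20, 7.28 and 7.12 to 9.18, 9.25 and 9.26) and Slc12a1, the cotransporter of the thick limb (log2 1.21). Slc14a1 (2.94-fold) is on the list but is not particular to these segments, and Aqp1 also stands in the tonicity-responsive list. Cldn10 and Slc14a1 had changed by -1.31 and -2.23 on the log2 scale at 12 h. Of 10 intercalated cell markers 3 were higher, near the 21.0% of all genes, with the ammonia channel gene Rhbg in front at 2.69-fold.

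The same interval after the other upward step, from 300 to 600 mosmol/kg, gives a comparison that shares no array. There, 2540 genes (17.5%) were higher at 24 h than at 12 h and 1379 (9.51%) lower. The difference between the steps, tested as an interaction in the same limma fit, was called for 1339 genes with a higher change after the step to 900 (9.23%) and for 1041 with a lower one (7.18%). Higher genes made up 56.3% of these calls as deposited and 43.3% after median centring. Of the 52 interferon-stimulated genes 38 had a higher change after the step to 900 and none a lower one, with a median difference of 0.77. After the step to 600, 24 had risen and 2 had fallen between 12 and 24 h, with a median of 0.28.

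The members differed in how far the steps were apart. Usp18 changed by 3.15 after the step to 900 and by -0.07 after the step to 600, a difference of 3.23 (adjusted p = 6.44e-12). Irf7 changed by 2.44 and 0.21, and Rsad2 by 2.14 and -0.43. Rtp4 and Mx2 rose after both steps, by 2.45 and 1.35 for Rtp4 and by 2.75 and 1.30 for Mx2. The difference for Mx1, of 0.46, was not called (adjusted p = 0.41). Aqp2 and Aqp3 changed by 0.03 and 0.13 after the step to 600, with differences of 1.97 and 2.20 between the steps.

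Other lists differed between the steps in another manner. Cholesterol genes rose after both, with 15 of 19 higher after the step to 900 and 18 of 19 after the step to 600. The difference was called for 3 of 19, near the 16.4% called among all genes. Mitotic genes were lower for 23 of 27 between 12 and 24 h after the step to 600, with a median of -0.70, and the difference was called for 20 of 27. Leukocyte markers fell for 13 of 15 in that interval after the step to 600, with a median of -1.87, and the difference was called for 13 of 15. The differences of these 2 lists therefore came with falls after the step to 600 and not with rises after the step to 900.

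**Figure D5:**
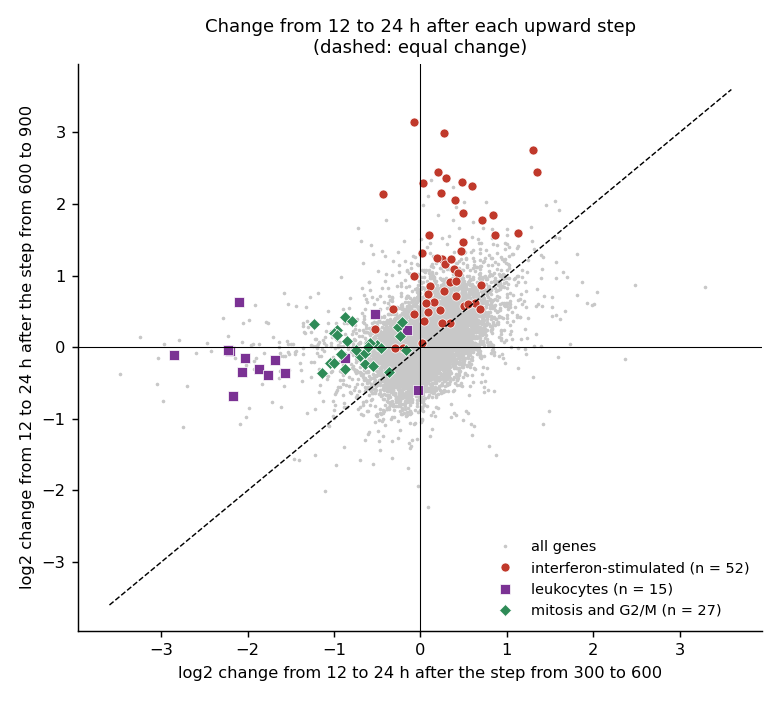
Log2 change from 12 to 24 h after the step from 600 to 900 mosmol/kg (vertical axis) against that after the step from 300 to 600 mosmol/kg (horizontal axis) for 14506 genes in grey and 3 lists in colour. Points on the dashed line changed equally. Most interferon-stimulated genes (red) lie above the line with rises after the step to 900, and leukocyte (purple) and mitosis genes (green) lie to the left with falls after the step to 600.

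The arrays at 12 h were more uneven than the others. Replicate 9 at 12 h differed from replicates 1 and 2 by a median of 0.200 and 0.194 on the log2 scale, while replicates 1 and 2 differed by 0.0971 and the 24 h arrays by 0.0969 to 0.105. The median SD of a gene was 0.143 at 12 h, 0.0899 at 24 h and 0.0871 at steady 600. The fit used a common spread of each gene for all groups, so it does not reflect this unevenness. Across the alternatives the limma adjusted p of Usp18 from 12 to 24 h reached 1.6e-05. Without replicate 9 at 12 h, 3389 genes were higher and 1549 lower, and 48 of the 52 interferon-stimulated genes were still called higher. All 30 arrays had their nearest neighbour within their own group. No label ties the replicates to separate cultures or animals, and the p-values therefore reflect only the spread among these arrays, which may be technical.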

How the data were processed

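Total RNA was hybridised to Affymetrix Rat Gene 1.0 ST arrays. The authors deposited log2 values. Per the submitters' processing notes, these come from RMA (robust multi-array averaging). RMA puts arrays on a shared scale, so a change in total RNA per cell cannot be seen, and changes at either end of the scale can be understated. Its version was not stated in the labels.

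Of 29170 probe sets 15310 had 1 gene symbol in the platform annotation, 323 had several and 13537 had no gene listed, and 15279 were matched by Entrez identifier to the GRCr8 gene table. The probe set with the highest mean stood for each of 14506 genes. Groups followed the titles. limma 3.58.1 in R 4.3.3 fitted 1 mean per group over all 30 arrays, and Benjamini-Hochberg adjusted p-values were judged at 0.05. A change at 12 h was called recovering if the change from 12 to 24 h was called with the opposite sign, and the percentage left is the 24 h change over the 12 h change, both against steady 600. The fit was checked on simulated data in which all groups shared the same spread of a gene. The 12 h arrays were more uneven than that, so the check does not cover their larger spread. With 3 arrays a group, their number limits the precision. Genes were named by a rule that takes the 8 strongest changes each way between 12 and 24 h, the strongest recoveries, the members of each list with the smallest adjusted p, the largest differences between the steps and 9 fixed genes. Other genes were chosen after their values were seen, and the members, lists and rule were chosen with earlier results of these data known. Alternatives were other normalizations, filters, probe set choices, variance models, array weights, only the arrays compared, the replicate number as a block and each replicate left out. Deviations of same-numbered 12 and 24 h arrays from their group means correlated at -0.071, 0.131 and 0.019, so the numbers were not taken as pairs.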

Additional observations from a re-analysis of the deposited data

Results flagged for a closer look

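The change from 12 to 24 h differed between the step to 900 and the step to 600 mosmol/kg, by the interaction test in limma, for 1339 genes with a higher change and 1041 with a lower one, the higher being 56.3% of the calls. The interferon-stimulated genes named in the report differed by 3.23 (Usp18), 2.72 (Ifit1), 2.57 (Rsad2), 2.27 (Ifi47), 2.24 (Irf7), 2.08 (Oasl), 1.45 (Mx2), 1.38 (Oasl2), 1.11 (Rtp4), 1.07 (Isg15), 0.99 (Irf9) and 0.87 (Gbp2) on the log2 scale. The largest differences elsewhere belonged to genes that fell after the step to 600 and changed little after the step to 900. They were 3.39 for transferrin (Tf), 3.10 for Fcgr2b, 3.01 for the macrophage scavenger receptor Cd163 and 2.91 for Il18. In the lower direction, the differences were -2.53 for Or2a25, -2.50 for Mmp13, -2.45 for Ly6al, -2.39 for Mmp3 and -2.38 for Tmem72. Mmp13 and Mmp3, both matrix metalloproteinases, rose by 1.42 and 1.49 after the step to 600 and fell by 1.08 and 0.89 after the step to 900.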

How the results depend on the processing

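No named gene with a call changed sign across the alternatives, while uncalled Akr1b1 did (-0.07 to 0.07 after quantile normalization). Several small list medians changed sign as well. After quantile normalization that of the aminoacyl-tRNA synthetases went from 0.09 to -0.04 and that of glycolysis and hypoxia from 0.06 to -0.02. The medians of the mitotic, DNA replication and interferon signalling lists also took both signs across the alternatives. Median centring turned the majority of the differences between the steps, to 1040 higher and 1362 lower. The interferon-stimulated genes called higher at 24 h numbered 46 to 48 and their median lay between 1.01 and 1.16. Quantile normalization raised the genes recovering from a 12 h rise from 878 to 1411. Array weights raised the differences between the steps with a higher change from 1339 to 2104 and the growing 12 h rises from 117 to 178. Fits with only the arrays compared have fewer samples to estimate the spread, and the uneven 12 h arrays weigh more in it where they enter. There, the genes lower at 24 h than at 12 h numbered 1086 (1661 with all arrays) and those recovering from a rise 570. The growing rises numbered 72 and the growing falls 96 (173 with all arrays). The replicate number as a block gave 3078 higher and 1682 lower genes at 24 h against 12 h with all arrays. With the block and only the arrays compared, 1086 genes were lower, 1083 were higher at 24 h than at steady 600 (1631 with all arrays and no block), 546 were recovering from a rise, and 76 rises and 97 falls were growing. Slc6a6 lost its call under that block (adjusted p = 0.0620), and the numbers were not taken as pairs. Leaving out 1 array at a time gave 2670 to 3389 higher and 1341 to 1615 lower genes at 24 h against 12 h. Ly6al kept its call in the change from 12 to 24 h (0.84) neither after quantile normalization (adjusted p = 0.0926) nor after cyclic loess normalization, nor in several leave-one-out fits. The cause of these shifts was not tested. Signal over background was not used here, so low values carry no detection call.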

Other observations

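Clock genes moved in both directions. Of 15 measured, 7 were higher at 24 h than at 12 h and 4 lower, with a median of 0.11. The activators Clock and Bmal1 fell by 0.67 and 0.44 and the repressor gene Cry1 by 0.92, while Cry2, Dbp, Per2, Nr1d1 and Per3 rose by 0.87, 0.80, 0.60, 0.52 and 0.42. The labels give no clock time of start or harvest, so whether the groups were taken at the same time of day is not known. After the step to 600, 9 of the 15 were higher at 24 h and 1 lower.

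Genes of ribosome biogenesis, which make ribosomal RNA and assemble ribosomes in the nucleolus, were lower for 8 of 21 between 12 and 24 h and higher for none, with a median of -0.18. The lower genes included Rrs1 (-0.52), Rrp9 (-0.41), Nolc1 (-0.39) and nucleolin (Ncl, -0.37), and 14 were lower after quantile normalization. Without replicate 1 at 24 h 2 were lower, and without replicate 2 or 9 at 24 h 5 were. Among 20 p53 target and growth arrest genes, 4 were higher and 9 lower, with Perp at 0.97 and Cdkn1a, which encodes the cell cycle inhibitor p21, at -0.44. Without replicate 2 at 12 h or replicate 9 at 24 h 2 were higher. Immediate early genes were lower for 10 of 27 and higher for 1 (Dusp1, 0.46). Of 12 aminoacyl-tRNA synthetase genes 5 were higher, Lars1 by 0.53 and Wars1 by 0.48, and none was lower. The list's median was 0.09 as deposited and -0.04 after quantile normalization. Of 29 genes of glycolysis or induced by hypoxia 10 were higher and 5 lower, and of 20 amino acid transporter genes 7 were higher and 5 lower, beside 21.0% and 11.5% of all genes. Of the transporters 4 were higher without replicate 1 at 12 h, and 3 were lower without replicate 2 at 12 h or replicate 1 at 24 h. The list of 4 histone genes held 1 higher member, H3f3b.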
